A study of Homo sapiens with 8 samples.

Results

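The genes described here are 44 interferon-stimulated effector genes, taken as every gene of a list of known members whose symbol stood in the gene name column of the array, out of 43317 genes in all. Each was represented by its brightest probe, and 31 of the 44 had 1 probe while 13 had more. The rule used gene names and signal strength, not the measured ratios, but the list was chosen with earlier results of these data known.

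Interferons are cytokines that cells release when they sense foreign nucleic acid. They bind receptors whose kinases phosphorylate STAT proteins, and these join IRF9 to form a factor that binds a promoter element called the interferon-stimulated response element. The genes that it switches on make the proteins that block virus entry, degrade RNA or tag proteins with ISG15, and many of them have a low level in tumour lines that were never infected.

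Expression was measured on 8 two-colour Agilent arrays of 1 slide, with 60-mer probes and 1 array for each condition. In every array RNA of mock cells, labelled as cells without transfection, carried Cy3, and RNA of transfected cells of the same line carried Cy5. PC3, a prostate cancer line, received either arm of miR-150 (miR-150-5p or miR-150-3p), miR-99a-3p or miR-100-3p. FaDu, a hypopharyngeal squamous carcinoma line, received one of the arms of miR-99a (miR-99a-3p or miR-99a-5p). PANC-1, a pancreatic cancer line, received si-FOXQ1-1 or si-FOXQ1-2, both small interfering RNAs against the transcription factor FOXQ1. All transfections used the same lipid reagent, no array held a control RNA, and the dyes were never exchanged, so the agent, the act of transfection and the dye cannot be told apart within an array. The labels give no time point.

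The arrays were alike in quality. Of 60901 gene spots, Cy3 was well above background at 44.5% to 49.2% and Cy5 at 37.2% to 41.8%, no spot was saturated, and the spike-in controls had a slope of 0.882 to 0.900 on their expected log ratio, below the slope of equality. The lines carried the marks of their labels in part. All 6 squamous markers were above background in both FaDu mock channels, and KRT5, KRT14, TP63 and DSG3 were not well above background in any PC3 or PANC-1 mock channel. Of 4 prostate luminal markers 3 were above background in every PC3 mock channel and KLK3 in none, and of 4 pancreatic ductal markers 3 were above background in both PANC-1 mock channels and PDX1 in none. Of 7 immune cell markers 5 were not well above background in any PC3 mock channel, and the summed mock signal of the 7 was 113.5 to 184.5 in PC3, 302 to 503.5 in FaDu and 152.2 to 211.3 in PANC-1. On the PANC-1 arrays the log2 ratio of FOXQ1 itself was −2.16 with si-FOXQ1-1 and −2.12 with si-FOXQ1-2.

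The agents and the promoters of the effector genes can be read as sequences. The mature sequences below are those of RefSeq (GRCh38.p14), 5′ to 3′, with the seed, bases 2 to 8, in capitals. They are shown because miR-99a-3p and miR-100-3p have nearly the same seed.
miR-99a-5p: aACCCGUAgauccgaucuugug
miR-99a-3p: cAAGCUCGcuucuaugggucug
miR-100-3p: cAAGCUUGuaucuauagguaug
The first 2 are the opposite arms of 1 hairpin on chromosome 21, at chr21:16539101-16539122 and chr21:16539138-16539159 on the plus strand, and miR-100-3p lies at chr11:122152240-122152261 on the minus strand. Counted from the 5′ end, miR-99a-3p and miR-100-3p shared 17 of 22 bases and 6 of 7 seed bases, the seed change being C7U.

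The response element was searched in RefSeq promoter windows (GRCh38.p14) that run from 250 bases before to 50 bases after a transcription start, as the letters GAAANNGAAA or the reverse complement TTTCNNTTTC. The search found a match in 3.57% of all 35116 windows and in at least 1 window of 4.38% of 27305 genes. Windows were found for 37 of the 44 effector genes, and 27 of the 37 (73.0%) held a match, 14 of them more than 1 in the same window. A match describes the letters, not a working site. The 60-base stretches below, printed on the strand of the gene with every match in capitals, are shown because these genes carry the results that follow.
ISG15: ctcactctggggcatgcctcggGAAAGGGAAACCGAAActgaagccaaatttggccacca
IFIT1: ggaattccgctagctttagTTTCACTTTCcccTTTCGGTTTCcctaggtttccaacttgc
OAS3: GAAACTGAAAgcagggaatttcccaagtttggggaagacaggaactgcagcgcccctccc
IFITM3: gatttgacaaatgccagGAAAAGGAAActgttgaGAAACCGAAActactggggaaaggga
IFI6: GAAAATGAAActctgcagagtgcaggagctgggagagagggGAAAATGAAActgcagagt
BST2: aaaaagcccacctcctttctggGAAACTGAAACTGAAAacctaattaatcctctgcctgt
RTP4: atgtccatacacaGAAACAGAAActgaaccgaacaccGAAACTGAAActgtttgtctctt
DTX3L: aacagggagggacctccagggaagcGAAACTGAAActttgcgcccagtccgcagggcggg
PARP9: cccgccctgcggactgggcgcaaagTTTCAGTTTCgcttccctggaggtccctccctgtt
They lie at chr1:1013362-1013421 (plus strand), chr10:89392488-89392547 (plus), chr12:112938331-112938390 (plus), chr11:320870-320929 (minus), chr1:27672289-27672348 (minus), chr19:17405723-17405782 (minus), chr3:187368330-187368389 (plus) and, for the last pair, chr3:122564307-122564366. DTX3L and PARP9, whose proteins form a ubiquitin ligase complex, are transcribed in opposite directions from this interval. The same match begins at −41 from the start of PARP9 and at −6 from that of DTX3L, whose start it spans.

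The log2 ratio of transfected over mock signal is the measure used throughout, and a value of 1 is a 2-fold difference. A gene counts as detected on an array if the scanner software marked its probe as well above background for Cy3, Cy5 or both. With 1 array for each condition no ratio has a replicate and no test was run, and the error given is that of the spot as the scanner software writes it, which leaves out the spread between cultures. The array with the most effector genes above 1 was PC3 with miR-150-3p, where 34 of 42 detected effector genes exceeded 1 (2.69% of the 20815 detected genes did) and none lay below −1 (6.68%). Their median was 1.75, against −0.02 over all detected genes, and 40 of 42 were above 0. On the other PC3 arrays the medians were −0.38 with miR-150-5p, −0.22 with miR-99a-3p and −0.30 with miR-100-3p. FaDu with miR-99a-3p came next, with 15 of 43 above 1 (8.25% of all detected genes) and 1 below −1 (9.37%), at a median of 0.70. The 15 became 9 with normexp correction and loess, and 9 against the mean of the FaDu mock channels. FaDu with miR-99a-5p had a median of 0.27, with 1 of 43 above 1 (0.851%) and 1 below −1 (4.86%). The 2 PANC-1 arrays had medians of −0.04 and −0.14. The shares of all genes below −1 include genes well above background in Cy3 alone. On the PC3 miR-150-3p array 3114 genes were so, against 96 in Cy5 alone. With both channels required, 402 of 17605 genes lay below −1 there. In FaDu it was 903 of 16482 with miR-99a-3p and 26 of 15771 with miR-99a-5p. Of the effector genes so measured 0 of 39, 1 of 42 and 0 of 36 lay below −1, in the same order.

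**Figure D1:**
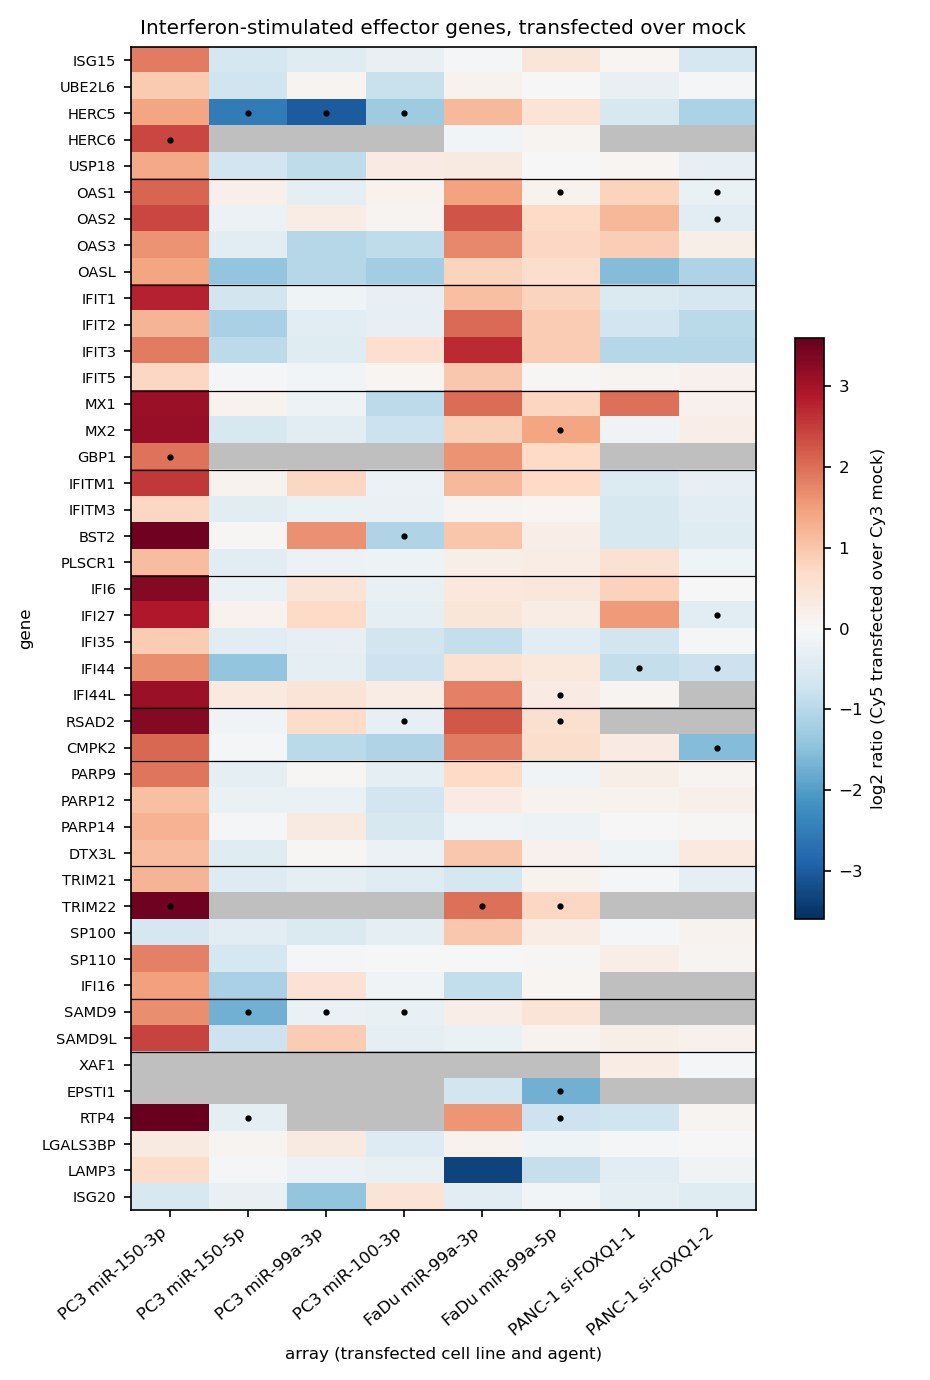
Log2 ratio of transfected over mock signal for the 44 genes (rows, in blocks by role) on the 8 arrays (columns), from blue (below 0) to red (above 0). Black dots mark a gene well above background in 1 channel only and grey cells a gene well above background in neither; the PC3 miR-150-3p column is red in 40 of 42 detected genes.

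In PC3 cells with miR-150-3p, 39 of the 42 detected genes were above background in both channels, with a median of 1.66. The 3 others, HERC6, GBP1 and TRIM22, were not well above background in the mock channel and were at least 5.25-fold, 2.32-fold and 2.77-fold higher in the transfected one. These bounds rest on the lowest mock signal called above background. On the highest mock signal not so called they were 3.52, 1.47 and 1.76. Later bounds within an array come with this stricter value where one exists. XAF1 and EPSTI1 were not well above background in either. Over the 34 effector genes measured in both channels of all 4 PC3 arrays, 31 had their highest ratio on this array, which held for 25.4% of 15842 genes, and the exceptions were SP100, LGALS3BP and ISG20.

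The ISG15 system tags proteins with a ubiquitin-like modifier, and 4 of its 5 genes were above 1 on this array. ISG15, the modifier itself, went from a mock signal of 25319 to 92656, a log2 ratio of 1.87 ± 0.27 (spot error). UBE2L6, its conjugating enzyme, had 0.93, HERC5, its main ligase, 1.42, and USP18, the protease that removes it and that also damps the receptor, 1.36. Across the arrays ISG15 had ratios of −0.63, 1.87, −0.43 and −0.26 in PC3 (miR-150-5p first, then miR-150-3p, then miR-99a-3p, last miR-100-3p), 0.43 and −0.05 in FaDu (the 5p arm, then the 3p arm), and 0.06 and −0.60 in PANC-1 with the first and second siRNA. The same order of arrays is used in the sentences that follow. Only 1 of these 8 values was above 1.

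All 4 OAS genes were above 1 on the miR-150-3p array. OAS1, OAS2 and OAS3 make the oligoadenylates that activate RNase L, and their ratios there were 2.10, 2.39 and 1.63. OAS2 had −0.21, 2.39, 0.26 and 0.09 in PC3, 0.73 and 2.28 in FaDu, and 1.18 in PANC-1 with si-FOXQ1-1, while with si-FOXQ1-2 the transfected channel was not well above background, at least 1.31-fold lower than mock (1.03 by the stricter bound). OAS3 had −0.38, 1.63, −1.02 and −0.92 in PC3, 0.75 and 1.74 in FaDu, and 0.89 and 0.20 in PANC-1. Both were thus high on the same PC3 and FaDu arrays. OASL, which lacks the synthase activity and aids RIG-I, had −1.43, 1.42, −1.01 and −1.26 in PC3, 0.63 and 0.80 in FaDu, and −1.57 and −1.12 in PANC-1. It lay below −1 on every PC3 and PANC-1 array but that of miR-150-3p.

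The IFIT proteins bind foreign RNA and keep it from the ribosome, and 3 of the 4 genes were above 1. IFIT1 went from a signal of 2237 to 15159, with ratios of −0.67, 2.76, −0.16 and −0.30 in PC3, 0.81 and 1.10 in FaDu, and −0.53 and −0.60 in PANC-1. IFIT2 had −1.18, 1.23, −0.41 and −0.29 in PC3, 0.91 and 2.03 in FaDu, and −0.70 and −0.98 in PANC-1. IFIT3, which stabilises IFIT1, had −0.93, 1.87, −0.44 and 0.62 in PC3, 0.91 and 2.68 in FaDu, and −1.02 on both PANC-1 arrays. The 3 genes were positive on both FaDu arrays and negative on both PANC-1 arrays. IFIT5 was lower at 0.75 in PC3 with miR-150-3p and 0.96 in FaDu with miR-99a-3p.

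Among the GTPases, MX1 and MX2, dynamin-like proteins that trap viral nucleocapsids, had ratios over 3 on the miR-150-3p array. MX1 went from 1956 to 17020 and had ratios of 0.12, 3.12, −0.18 and −0.95 in PC3, 0.78 and 2.02 in FaDu, and 2.00 and 0.15 in PANC-1. The siRNAs against the same gene thus gave MX1 unlike values. MX2 had −0.57, 3.14, −0.42 and −0.77 in PC3, 0.87 in FaDu with miR-99a-3p, and −0.14 and 0.24 in PANC-1. In FaDu with miR-99a-5p its mock channel was not well above background, and the transfected signal was at least 2.68-fold higher (1.97 by the stricter bound). The probe used lies at chr21:42780501-42780560 (hg19, the build of the array's header). A second one at chr21:42735919-42735978, listed against another transcript, had −0.26 on the miR-150-3p array with the transfected channel not well above background.

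The membrane factors split by size of the difference. BST2 (tetherin), which holds budding virus at the cell surface, went from 116.7 to 1330, with 0.04, 3.51 and 1.65 on the first 3 PC3 arrays. On the miR-100-3p array its transfected channel was not well above background. It had 0.23 and 0.99 in FaDu and −0.58 and −0.45 in PANC-1. IFITM3, which blocks virus entry from endosomes, had a bright mock signal of 28599 and ratios of −0.38, 0.73, −0.23 and −0.24 in PC3, 0.06 and 0.11 in FaDu, and −0.57 and −0.40 in PANC-1. IFITM1 had 2.55 and PLSCR1, a phospholipid scramblase, 1.10 on the miR-150-3p array. The IFITM genes are close paralogs, and whether their probes take up each other's RNA was not tested.

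Of the 5 IFI genes 4 were above 1. IFI6, a small hydrophobic protein that inhibits apoptosis, went from 1238 to 12199, with −0.23, 3.30, 0.47 and −0.26 in PC3, 0.40 and 0.39 in FaDu, and 0.84 and 0.03 in PANC-1. IFI27, a mitochondrial membrane protein, had 2.89 and IFI44 1.67 on the miR-150-3p array, and IFI44L lay between IFI27 and IFI6. IFI35 was the exception at 0.91, and it had −0.41, −0.30 and −0.65 on the other PC3 arrays, −0.40 and −0.85 in FaDu, and −0.65 and −0.06 in PANC-1. It was thus below 0 on the 7 other arrays.

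RSAD2 (viperin), which makes a chain-terminating nucleotide, and its neighbour CMPK2, a mitochondrial nucleotide kinase, had 3.30 and 2.06. RSAD2 went from 107.5 to 1060, and its other PC3 ratios were −0.14 with miR-150-5p and 0.65 with miR-99a-3p. Its transfected channel was not well above background with miR-100-3p or in FaDu with miR-99a-5p, and neither channel was in PANC-1. In FaDu with miR-99a-3p it had 2.23. CMPK2 had −0.03, 2.06, −0.97 and −1.08 in PC3, 0.65 and 1.86 in FaDu, and 0.29 in PANC-1 with si-FOXQ1-1. With si-FOXQ1-2 its transfected channel was not well above background, at least 2.25-fold lower than mock (1.57 by the stricter bound).

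The PARP proteins attach or read ADP-ribose, and all 4 genes of this set were above 1, within a narrow range of 1.09 to 1.94. PARP9 had −0.36, 1.94, 0.04 and −0.35 in PC3, −0.14 and 0.70 in FaDu, and 0.21 and 0.09 in PANC-1. DTX3L, which shares its promoter interval with PARP9, had 1.11 on the miR-150-3p array and 0.97 in FaDu with miR-99a-3p. PARP14 had −0.05, 1.26, 0.32 and −0.57 in PC3, −0.18 and −0.14 in FaDu, and −0.02 and 0.04 in PANC-1. PARP14 thus stayed within 1 on all arrays but that of miR-150-3p.

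SP100, a scaffold of nuclear bodies, was the lowest of the effector genes on the miR-150-3p array. It had −0.39, −0.61, −0.53 and −0.33 in PC3, 0.28 and 0.98 in FaDu, and −0.04 and 0.13 in PANC-1, with a mock signal of 19778 on the miR-150-3p array. This value turned on the probe. The 60-mer used lies at chr2:231380490-231380696 (hg19, a span longer than the 60-mer), and the 2 others at chr2:231331037-231331861 and chr2:231410216-231410275 had 0.56 and 1.17 on the same array. In FaDu with miR-99a-3p the 3 probes had 0.98, −0.59 and 0.31. Its relative SP110 had 1.82 on the miR-150-3p array, and IFI16, a DNA sensor, had 1.47. IFI16 had −1.16, 0.52 and −0.11 on the other PC3 arrays, and 0.08 and −0.87 in FaDu, and was not well above background in PANC-1. TRIM21, a ubiquitin ligase that binds antibody-coated virus, had −0.47, 1.24, −0.36 and −0.45 in PC3, 0.12 and −0.63 in FaDu, and −0.07 and −0.34 in PANC-1.

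SAMD9L and SAMD9, which restrain poxviruses, had 2.42 and 1.66 with miR-150-3p. SAMD9L had −0.75, 0.92 and −0.36 on the other PC3 arrays, 0.12 and −0.23 in FaDu, and 0.21 and 0.16 in PANC-1. Among the remaining effectors, RTP4, a receptor transporter, had the highest ratio of all, 3.65 ± 0.43, from a mock signal of 22.1 that lay close to the limit of detection to 277.6. It had 1.60 in FaDu with miR-99a-3p and −0.70 and 0.10 in PANC-1. Its transfected channel was not well above background on any of the other arrays. ISG20, a 3′ exonuclease, had −0.26, −0.58, −1.41 and 0.50 in PC3, −0.10 and −0.39 in FaDu, and −0.33 and −0.43 in PANC-1. LGALS3BP, a secreted glycoprotein, had 0.11, 0.32, 0.33 and −0.47 in PC3, −0.16 and 0.14 in FaDu, and −0.06 and −0.02 in PANC-1. LAMP3, a lysosomal membrane protein, had −0.04, 0.66, −0.21 and −0.26 in PC3, −0.82 and −3.32 in FaDu, and −0.37 and −0.12 in PANC-1. In PC3 these 3 stayed below 1 on the array where most effector genes exceeded it.

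**Figure D2:**
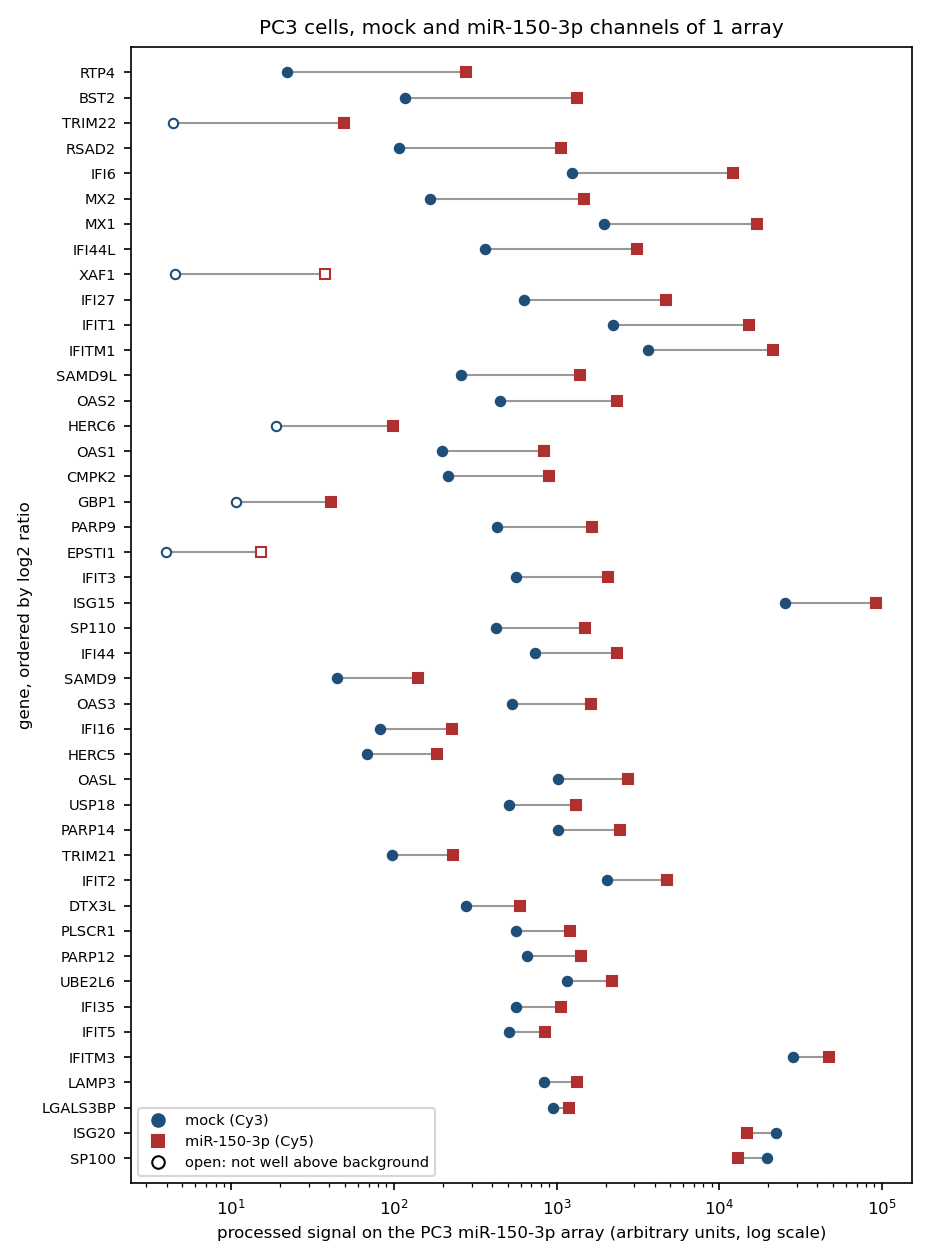
Processed signal (log axis, arbitrary units) of the 44 genes in the mock channel (circles) and the miR-150-3p channel (squares) of 1 PC3 array, ordered by log2 ratio, with open symbols for values not well above background. The transfected signal lies right of the mock signal in all genes but ISG20 and SP100, which stand lowest at −0.58 and −0.61.

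A match to the response element did not sort the size of these ratios. The 26 detected genes with a match had a median of 1.77 (range −0.58 to 3.65), and the 9 with a window but no match had a median of 1.82 (range −0.61 to 2.42). The genes without a match include OAS1, SP110 and SAMD9L.

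The upstream genes of the pathway were read from a list of 45 genes, of which 44 had a probe. On the miR-150-3p array 30 of these were detected, 6 above 1 and 1 below −1, with a median of 0.36. Of the signal transducers and regulatory factors 7 were detected, with a median of 1.16, among them IRF9, the DNA-binding partner, at 2.21, STAT2 at 1.38, IRF5 at 0.07 and IRF3 at −0.28. Of the nucleic acid sensors and their adaptors 7 were detected, with a median of 0.71. IFIH1 (MDA5) had 2.29, DDX58 (RIG-I) 1.81 and EIF2AK2 (PKR) 0.95, the adaptor MAVS had −0.36 and the DNA sensor MB21D1 (cGAS) −0.47, while TLR3 was not well above background in either channel. The 9 receptor and kinase genes lay between −0.49 and 0.61. IFNB1 was not well above background in either channel of any array, IFNL1 in neither channel of this one, and IFNL2 in the mock channel alone. IFNE, an epithelial interferon, had a mock signal of 113.5 and a transfected signal that was not well above background, at least 3.16-fold lower (2.14 by the stricter bound).

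In FaDu neither STAT2 nor IRF9 exceeded 1. With miR-99a-3p the log2 ratio was −0.96 for STAT2, −0.28 for IRF9 and −1.72 for IRF7, and SOCS1, an inhibitor of the kinases, had −1.54. IFIH1 was at 1.12 and DDX58 at −0.20. With miR-99a-5p STAT2 and IRF9 were at −0.28 and 0.09, while the type III interferons IFNL1 and IFNL2 were at 1.37 and 1.90, from mock signals of 47.9 and 57.9. With miR-99a-3p the same interferons were at 0.50 and −0.79. IFNL2 has a close paralog, and its probe may take up both RNAs, which was not tested.

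In FaDu with miR-99a-3p the effector genes ranged from LAMP3 at −3.32 to IFIT3 at 2.68. IFIT3 went from 343.8 to 2208, OAS2 from 150.4 to 729.4, RSAD2 from 38.6 to 181.1, IFIT2 from 911.7 to 3724 and MX1 from 315 to 1278, and these were the 5 highest of the genes measured in both channels. OAS2, OAS3 and IFIT2 each had another probe at 0.79, 0.42 and 0.70, so their sizes depended on the probe while the sign did not. LAMP3 went from 9121 to 911.9. The next lowest were IFI16 at −0.87, IFI35 at −0.85, EPSTI1, which was not well above background in PC3 or PANC-1, at −0.65 and TRIM21 at −0.63. HERC6 had −0.10 at the probe used and 1.07 at its other one. TRIM22, whose mock channel was not well above background, was at least 3.62-fold higher (2.44 by the stricter bound). The OAS and IFIT genes were thus above 0 in all 8 cases while ISG15, PARP14 and SAMD9L were between −0.23 and −0.05.

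All 15 effector genes above 1 in FaDu with miR-99a-3p were also above 1 in PC3 with miR-150-3p, which is 100% of the first list and 44.1% of the second. The second list holds 34 of the 42 effector genes detected there, so a large overlap says little. The overlap over all genes was not counted. With another correction, as given above, the first list holds 9 genes. The 15 include OAS1, OAS2 and OAS3, IFIT1, IFIT2 and IFIT3, MX1, RSAD2, CMPK2, HERC5, IFITM1, IFI44L and RTP4. These arrays do not share mock RNA.

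With miR-99a-5p the differences were smaller. The 5 highest genes measured in both channels were IFIT2 at 0.91, IFIT3 at 0.91, IFIT1 at 0.81, MX1 at 0.78 and OAS3 at 0.75, and the 5 lowest were LAMP3 at −0.82, IFI35 at −0.40, PARP14 at −0.18, LGALS3BP at −0.16 and PARP9 at −0.14. The single gene below −1, EPSTI1, had a transfected channel not well above background, and its value gives no bound above 1 by the stricter rule. Over the 36 effector genes measured in both channels of both FaDu arrays, 24 were above 0 on both (30.7% of 15233 genes) and 4 below 0 on both (31.4%), the latter being IFI35, PARP14, LAMP3 and ISG20. Farther from 0 with miR-99a-3p than with miR-99a-5p were 28 of the 36 (77.8%), close to the 72.8% of all genes.

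**Figure D3:**
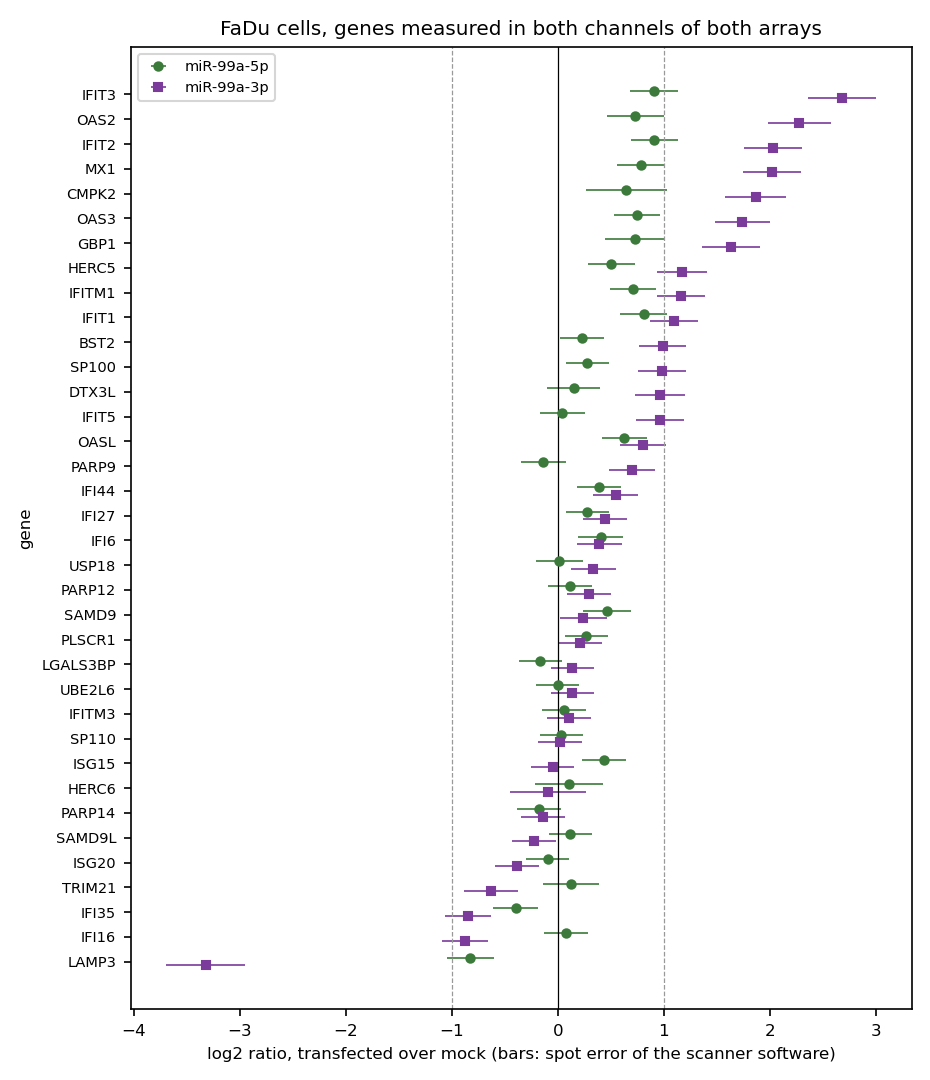
Log2 ratio of transfected over mock signal for the 36 genes measured in both channels of both FaDu arrays, with miR-99a-5p (circles) and miR-99a-3p (squares), bars giving the spot error and dashed lines −1 and 1. IFIT, OAS and MX1 genes stand right of 0 on both arrays and LAMP3 stands left on both, at −0.82 and −3.32.

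The other PC3 agents left few effector genes above 1 and some below −1. With miR-150-5p none was above 1 (0.664% of all detected genes) and 6 of 39 were below −1 (4.49%), OASL at −1.43, IFI44 at −1.41, IFIT2 at −1.18 and IFI16 at −1.16, with HERC5 and SAMD9 not well above background in the transfected channel. HERC5 was at least 2.50-fold lower (1.71 by the stricter bound). With miR-99a-3p 1 of 38, BST2 at 1.65, was above 1 (4.23%) and 4 were below −1 (7.39%), namely ISG20, OAS3, OASL and HERC5, which was not well above background in the transfected channel and at least 2.20-fold lower (1.38 by the stricter bound). With miR-100-3p none was above 1 (0.987%) and 4 of 38 were below −1 (3.34%), OASL, CMPK2 and, not well above background in the transfected channel, HERC5 and BST2. The related agents miR-99a-3p and miR-100-3p had medians of −0.22 and −0.30. With miR-100-3p BST2 was at least 1.44-fold lower than mock, with no bound above 1 by the stricter rule, so its contrast with miR-99a-3p rests on a signal near background. HERC5 was lower in the transfected channel on all 3 arrays. With both channels required, 4 of 36, 3 of 36 and 2 of 34 effector genes were below −1 on these 3 arrays, in the order given. Of all genes so measured, 138 of 17629, 697 of 17452 and 57 of 17060 were below −1.

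In PANC-1, 3 of 37 effector genes were above 1 with si-FOXQ1-1 (0.905% of all detected genes) and 2 below −1 (3.31%), and none of 36 was above 1 with si-FOXQ1-2 (0.412%) and 4 below −1 (3.29%). The first 3 were MX1 at 2.00, IFI27 at 1.53 and OAS2 at 1.18. With si-FOXQ1-2 MX1 was at 0.15, and the transfected channels of IFI27 and OAS2 were not well above background. OASL and IFIT3 were below −1 with both siRNAs. With both channels required, 2 of 36 effector genes were below −1 with si-FOXQ1-1 and 3 of 31 with si-FOXQ1-2. Of all genes so measured, 60 of 16413 and 62 of 16577 were below −1. Of the 31 effector genes measured in both channels of both arrays, 22 (71.0%) had the same sign with both, 8 above 0 and 14 below, and 63.3% of 15831 genes had the same sign.

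The mock channels show how the effector genes stand in untransfected cells. The mock level is the log2 signal less the 75th percentile of the array. Of the 44 genes 33 were above background in all 8 mock channels. Differences between lines were tested with limma over the 8 mock channels (PC3 n = 4, FaDu n = 2, PANC-1 n = 2) and 22752 genes, 43 of them effector genes, with a call at an adjusted p under 0.05 and a difference over 1. The labels do not say whether mock channels of a line came from separate cultures, so these p-values measure only the spread between hybridisations. The level of a gene can differ through fewer cells that express it or through less RNA per cell, which cannot be told apart here.

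FaDu mock cells had higher levels than PC3 mock cells of 17 effector genes (19.7% of all genes were called higher) and lower levels of 6 (20.8%). The 17 include XAF1, which was not well above background in any mock channel of either line, and without it 16 remain. IFI27 was at 5.96 in both FaDu mock channels and at 0.80, 1.47, −0.32 and −0.24 in the PC3 mock channels, in the order of arrays above, a difference of 5.53 (adjusted p = 5.9e-05, limma). IFI16 differed by 3.97, LAMP3 by 3.52, BST2 by 3.37, OASL by 2.40 and HERC5 by 2.21. GBP1, EPSTI1 and HERC6 were not well above background in any PC3 mock channel and were at least 5.13-fold, 4.10-fold and 3.57-fold higher in FaDu. These and the later bounds between lines rest on the lowest mock signal called above background. No stricter bound was computed for them, and it would be smaller. MX1 was lower in FaDu, with a difference of −2.18 (adjusted p = 6.8e-05, limma), at 0.50 and 0.45 against 2.37 to 3.09 in PC3. OAS2 was lower too, at −1.69, and so was CMPK2, at −1.56. OAS2 and MX1, among the highest genes on the FaDu miR-99a-3p array, were thus lower in FaDu mock cells than in PC3 mock cells. The calls of GBP1, EPSTI1, HERC6 and CMPK2 did not hold with normexp correction and quantile scaling, where the differences were 0.79, 0.86, 0.55 and −0.83, nor did that of CMPK2 with the mean over probes, at −0.62.

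PANC-1 mock cells had higher levels than PC3 of 15 effector genes (16.0% of all genes) and lower levels of 11 (16.7%). The 11 include HERC6, which was not well above background in any mock channel of either line, and without it 10 remain. RTP4, above background in 2 of 4 PC3 mock channels, was higher by 3.98 in the fit, a value that depends on signals near background, MX2 by 3.47 (3.00 and 3.01 in PANC-1 against −0.53 to −0.36 in PC3, adjusted p = 1.3e-06, limma), IFITM1 by 3.26, OASL by 2.91, IFIT3 by 2.44, IFIT1 by 2.30 and IFIT2 by 1.76. IFI44, OAS2, IFI27 and MX1 were lower, with differences of −3.40, −2.85, −2.64 and −1.93, and the call of IFI27 was lost when mock pairs were averaged. IFI16 and RSAD2 were not well above background in PANC-1 and at least 4.80-fold and 3.28-fold higher in PC3, calls that did not hold with normexp correction and quantile scaling (−0.91 and −0.64). The IFIT and OAS2 levels thus differed in opposite directions between these lines.

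Between FaDu and PANC-1, 15 effector genes were higher in FaDu (17.9% of all genes) and 10 lower (19.2%). Both FaDu arrays lay in row 1 of the slide and both PANC-1 arrays in row 2. Line and row thus cannot be told apart in this contrast. With each array centred on its median the split was 10 higher and 14 lower, as this scaling moved the median difference of all genes from 0.06 to −0.28. IFI27 differed by 8.18, IFI44 by 5.53 and SAMD9L by 3.07, and IFI16, not well above background in PANC-1, was at least 75.2-fold higher in FaDu. MX2, above background in 1 of 2 FaDu mock channels, was lower in FaDu, with a difference of −5.59, and IFIT3, IFIT2 and RTP4 were lower with −3.07, −2.71 and −2.36. When pairs of mock channels that agreed closely were averaged first, the 6 counts were 16 and 5, 15 and 9, and 14 and 9 in the order given. With normexp correction and quantile scaling they were 11 and 3, 12 and 7, and 8 and 7.

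**Figure D4:**
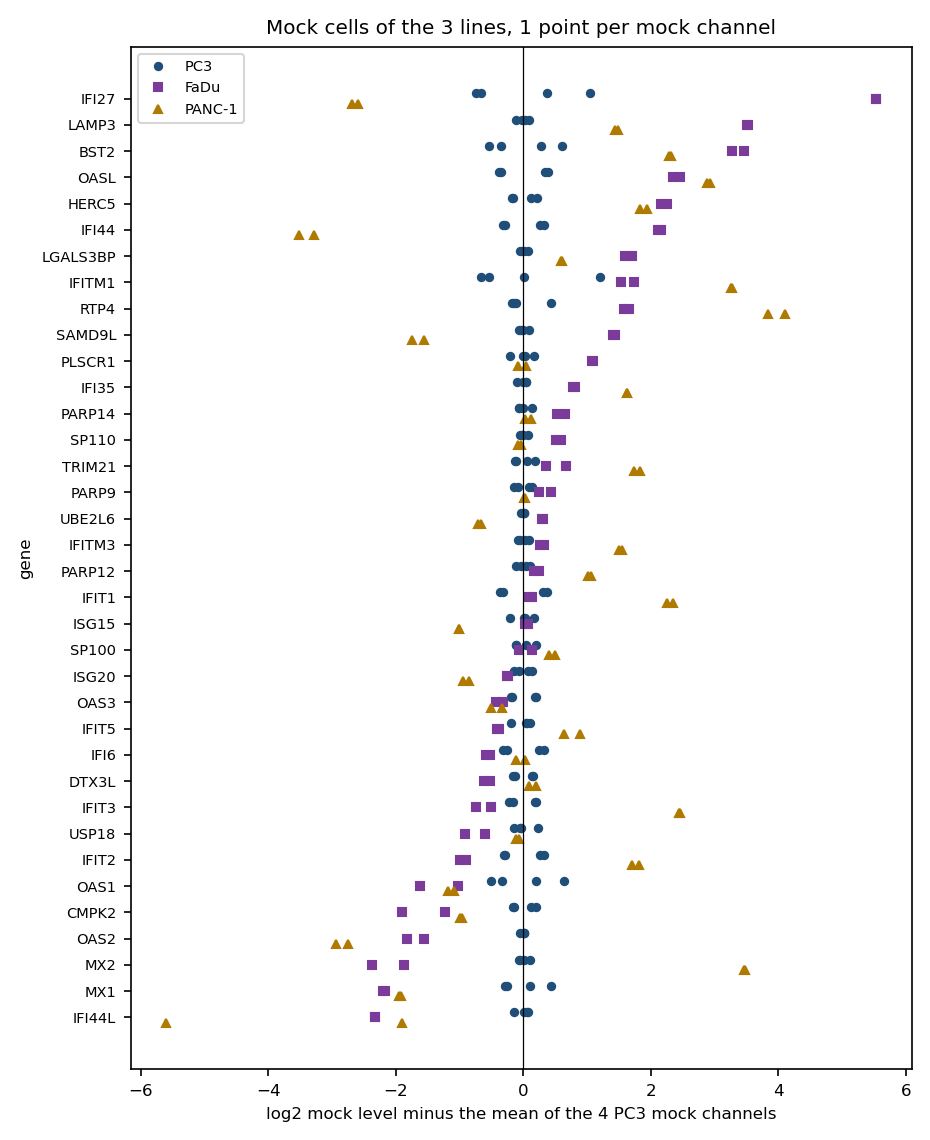
Mock level of the effector genes above background in at least 1 mock channel of each line, as log2 difference from the mean of the 4 PC3 mock channels (circles), with 2 FaDu (squares) and 2 PANC-1 (triangles) mock channels, 1 point each. IFI27 is farthest to the right in FaDu at 5.53, and the IFIT genes and MX2 lie right of 0 in PANC-1 while IFI44 and OAS2 lie left.

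The 4 PC3 mock channels fell into 2 pairs, and the effector genes were among the genes that differed between them. The mock channels of the miR-150-5p and miR-150-3p arrays differed by a median of 0.0648 over 20423 probes and those of the miR-99a-3p and miR-100-3p arrays by 0.0706, but channels from different pairs by 0.139 to 0.141. The first pair lay in row 1 of the slide and the second in row 2, so that the row and the RNA cannot be told apart. Of the 38 effector genes above background in all 4, both channels of the first pair exceeded both of the second for 25, which held for 31.0% of 18981 genes, and the reverse held for 3, against 32.1% of all genes. The mean of the first pair was over 0.5 higher for 11 of the 38 (28.9%), against 2.02% of all genes.

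The size of this difference was 1.41 for IFI27, 1.21 for IFITM1, 1.05 for RSAD2, 0.88 for BST2, 0.84 for OAS1, 0.72 for OASL, 0.68 for IFIT1, 0.60 for IFI44, 0.59 for IFIT2, 0.57 for IFI6 and 0.55 for MX1. IFI16 went the other way, at −0.58. Within the first pair, the mock channel of the miR-150-3p array exceeded that of the miR-150-5p array for 17 of 38, with a median of −0.03. Over all genes it did so for 7409 of 18981, also with a median of −0.03, so the effector genes were close to all genes here. The largest differences among the 38 were those of IFITM1 at 1.19 and IFI27 at 0.67. The miR-150-3p ratios were taken against the higher pair. Against the mean of all 4 PC3 mock channels, after normexp correction, loess and Aquantile scaling, the median with miR-150-3p was 1.48 with 25 genes above 1, and against its own mock channel with the same correction it was 1.36, also with 25. For miR-150-5p, the 6 genes below −1 became none against that mean, and 3 with the same correction and its own mock channel. The part of the mock channels in these ratios was not tested.

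**Figure D5:**
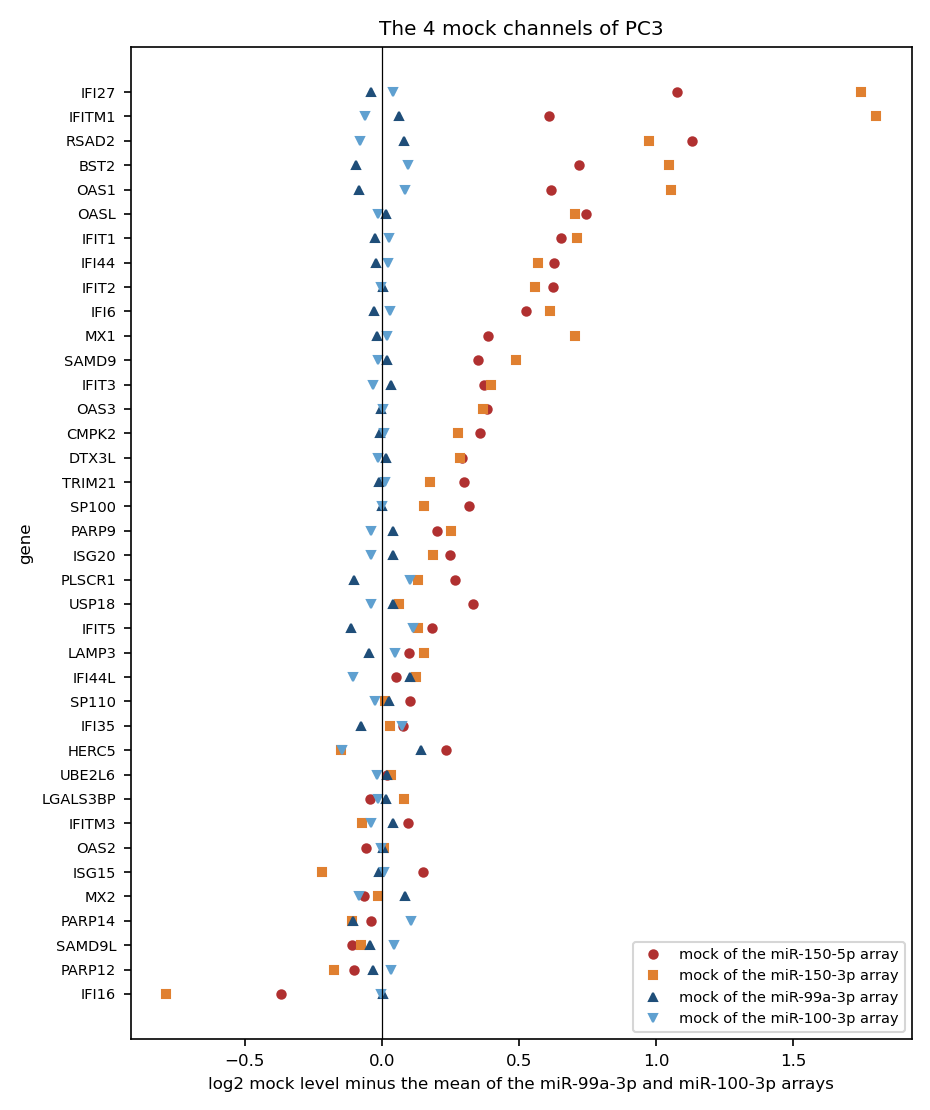
Log2 mock level of the 38 effector genes above background in all 4 PC3 mock channels, less the mean of the miR-99a-3p and miR-100-3p arrays, 1 point for each mock channel. The mock channels of both miR-150 arrays (circle, square) lie to the right in the upper rows, up to a mean of 1.41 for IFI27, while those of the other arrays (triangles) stay near 0.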

How the data were processed

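The authors hybridised RNA of mock (Cy3) and transfected (Cy5) cells to Agilent arrays and processed each scan with Feature Extraction 10.7.3.1, which corrected the background and normalised the dyes. The deposited intensities are processed signals in arbitrary units, and each deposited log10 ratio, red over green, has a spot error. The value table deposited for the whole series held the scanner log10 ratios within 0.001, with column medians of 0, so its scale, centring and direction are those of the scanner. The number of arrays, 1 for each condition, limits the precision.

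From these, log2 ratios were computed by multiplying by 3.3219. Control and outlier spots (81 to 178 an array) were left out, spots of a probe were averaged, and the brightest probe over all 8 arrays stood for a gene. For a gene well above background in 1 channel only, the bright signal was divided by the larger of the dim signal and the lowest signal above background in that channel, which gives a lower bound within the array. A stricter bound within the array used the highest signal not called above background. Bounds between lines were computed only with the lowest signal above background. Mock levels were the log2 Cy3 intensity less the 75th percentile of the array, with a filter of at least 2 mock channels above background, and were fitted with limma 3.58.1 (R 4.3.3) and Benjamini-Hochberg adjustment over 22752 genes. The fit was tested on simulated data with independent noise in each channel. The simulation leaves out the pairs of PC3 mock channels, so it cannot show how the p-values hold with them. Alternatives were normexp (offset 50) with loess, quantile or Aquantile scaling, other filters, other choices of probe, other centring and other mock controls. Python 3.11.15, pandas 2.3.3 and numpy 2.4.6 were used.

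All 44 genes are accounted for by role. Values on all arrays are given for the gene with the highest mean signal of each role and for the 5 highest and 5 lowest genes measured in both channels on the PC3 miR-150-3p and each FaDu array, with counts and ranges for others. IFNA1 had no probe. Some genes of the pathway and marker lists are not reported here. Genes, lists and tests were chosen with earlier results of these data known. Gene names are those of the array design, and other genes named were chosen after their values were seen. Columns of other samples were 0. Repeated comparisons use 8 arrays from 1 slide, and no batch other than the row on the slide was found.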

Additional observations from a re-analysis of the deposited data

Results flagged for a closer look

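In PC3 the mock level of OAS2 in the miR-150-5p array was 0.89 and lay below those of the other 3 mock channels, at 0.95 to 0.96. The gap was 0.851 of the whole range, above Dixon's critical value for 4 values. It was the single such gene of 38 examined, and chance marks about 1 in 20.

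The median log2 ratio of the effector genes with miR-99a-3p was 0.70 in FaDu and −0.22 in PC3, a difference of 0.92 that was not tested. Over the 36 genes measured in both channels of both arrays, 17 were above 0 in FaDu and below 0 in PC3, and 3 the reverse. These counts by sign were not made over all genes. The ratio was higher in FaDu for 26 of the 36, against 7231 of 14882 genes. The FaDu array lay in row 1 of the slide and the PC3 array in row 2, so line and row cannot be told apart. The median difference of the 36 was 0.77, against −0.03 over 14882 genes.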

How the results depend on the processing

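No paired analysis was possible because every agent was hybridised once, and the numbers of mock channels come from no label. The median ratio of the effector genes kept its sign on all 8 arrays under all 10 alternatives, and 77 of 80 values moved by less than the median spot error. The series value table, among the 10, holds the scanner ratios, so its values could not differ. Keeping outlier spots changed no median and no count. These settings are among the 80 values of each kind but are no check of the results. With miR-150-3p in PC3 the median was 1.36 under normexp and loess and 1.48 against the mean of the mock channels. With miR-99a-3p in FaDu it was 0.42 when the lowest probe was used. Counts above 1 moved past 1.5 times in 13 of 80 cases and counts below −1 in 19 of 80. Above 1, normexp and loess gave 9 in FaDu with miR-99a-3p, 0 with miR-99a-5p, 0 in PC3 with miR-99a-3p and 1 with si-FOXQ1-1, and the mean of mock channels gave the same 4 counts. In FaDu with miR-99a-5p it was 2 without the filter on dim probes and 0 with both channels required, the mean over probes or the lowest probe. With si-FOXQ1-2 it was 2 without that filter. Below −1, normexp and loess gave 0 with miR-99a-5p, 3 with miR-150-5p, 1 in PC3 with miR-99a-3p, 0 with miR-100-3p and 1 with each siRNA. The mean of mock channels gave 0, 0, 2, 2, 1 and 0 in the same order. Requiring both channels gave 0 with miR-99a-5p and 2 with miR-100-3p, as did setting dim genes at their bounds, an alternative chosen after seeing the data. The lowest probe gave 3 with miR-99a-5p and 9 with si-FOXQ1-2, and centring gave 1 with si-FOXQ1-1. MX2 with miR-150-3p turned to −0.26 at its lowest probe. For mock levels, normexp and quantile gave 11 higher and 3 lower (FaDu minus PC3), 7 lower (PANC-1 minus PC3) and 8 higher (FaDu minus PANC-1), and OAS2 turned to −0.092 between FaDu and PANC-1 with the mean over probes. Leaving out 1 mock channel moved no count past 1.5 times, but ended the call of BST2 between FaDu and PANC-1 for each FaDu or PANC-1 channel left out (0.98 to 1.16). Other calls ended too. Without the mock channel of the FaDu miR-99a-3p array, FaDu minus PC3 gave 15 higher and 4 lower, against 17 and 6 with all channels. Counting only genes above background in at least 1 mock channel of the lines compared, chosen after seeing the data, gave 16 higher for FaDu minus PC3 and 10 lower for PANC-1 minus PC3 and left the 4 other counts as they were. The causes were not tested.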
